A study of Mus musculus with 9 samples.

Results

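The mitochondrial ribosomal protein genes are the nuclear genes for the protein subunits of the ribosome inside mitochondria. They were taken from the authors' deposited expression table as every single-gene entry named Mrpl or Mrps followed by a number and, in some symbols, 1 more letter, which gave 76 of 23285 genes. All 76 were tested in all 3 comparisons of the study. By subunit, 49 were counted in the large and 27 in the small subunit. Among the 49, Mrps18a and Mrps30 carry small-subunit names but sit in the large subunit in structures of the mammalian mitoribosome. Proteins of families shared with bacteria make up 48 of the 76, and the other 28 are specific to mitochondria.

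The mitoribosome translates the few messages of the mitochondrial genome, all of which encode core subunits of the respiratory chain and of ATP synthase. Its ribosomal RNAs are made inside the organelle, whereas all its proteins are encoded in the nucleus and imported. Erythroblasts depend on mitochondria for heme and for the iron-sulfur clusters that support it, and they lose these organelles at the end of maturation.

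The study sequenced RNA from immature erythroid cells sorted from mouse bone marrow, in which the gene for TRIM28, a corepressor recruited by KRAB zinc finger proteins, had been deleted in 2 of the 3 groups. KOb and KOa came from C57BL/6 mice of genotype TRIM28(flox/flox):Mx1Cre, which received 5 poly(I:C) injections to induce Cre and were analysed 2 weeks later. The Mx1 promoter that drives this Cre responds to interferon and is not restricted to erythroid cells. KOb cells were CD71(hi)TER119- and are described as severely deleted, with 1 to 4% of the gene undeleted. KOa cells were CD71(hi)TER119+ and are described as modestly deleted, with 5 to 8% undeleted. FFa, the control, held CD71(hi)TER119+ cells of C57BL/6 mice with the same TRIM28(flox/flox) alleles and no Cre, and the labels do not say whether poly(I:C) was given to these mice. Young erythroblasts carry much CD71, the transferrin receptor, and gain the erythroid surface marker TER119 as they mature. Each group held 3 libraries, which the labels do not assign to separate mice, so the p-values may measure technical spread in part.

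Levels are given as FPKM, fragment numbers corrected for transcript length and sequencing depth, so they can be set side by side between genes. The table holds 1 FPKM per gene and group, with the 3 libraries already pooled, so no value has an SD and the depth per library is unknown. A gene is called higher or lower where the q-value of the authors' Cuffdiff test, adjusted over all genes and comparisons, is below 0.05. The error after ± is the standard error implied by the deposited test statistic. Trim28 had an FPKM of 4.76 in KOb, 6.64 in KOa and 26.0 in FFa, that is 18.3% of FFa in KOb and 25.5% in KOa. Of 8 erythroid marker genes in the table, all were detected in every group, and 4 were lower in KOb than in FFa, 4 lower in KOb than in KOa and 1 lower in KOa than in FFa by the authors' deposited q. Their summed FPKM was 2796 in KOb, 4414 in KOa and 5414 in FFa. Markers of other cell types moved as well. All 10 B cell markers were lower in both mutant groups than in FFa, with summed FPKM of 13.6 in KOb, 15.1 in KOa and 236 in FFa, and none of the 7 tested between KOb and KOa was called. The 10 granulocyte markers summed to 13462 in KOb, 16603 in KOa and 49125 in FFa, with 8 lower and 1 higher in KOb than in FFa, 6 lower and 1 higher in KOa than in FFa, and 1 lower in KOb than in KOa. The 10 macrophage markers summed to 29.2 in KOb, 47.4 in KOa and 75.3 in FFa, with 9 of 9 tested lower in KOb than in FFa, 7 of 10 lower in KOa than in FFa and 3 of 8 lower in KOb than in KOa. None of these markers was at 0 in any group, and their part in the results was not tested. In bulk RNA, fewer cells of a type and less RNA per cell cannot be told apart.

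Promoter stretches are shown for 5 members, chosen because each is among the members called below and carries a motif known from nuclear genes for mitochondrial proteins. Each is the 120 bases before a RefSeq start site on the + strand of GRCm38.p6, with the match in capitals. In Mrpl12 (chr11:120484517-120484636) the capitals mark the motif of NRF1, which reads GCGC, any base, then TGCGC. In Mrpl22 (chr11:58171544-58171663), Mrpl34 (chr8:71464806-71464925) and Mrps18a (chr17:46110884-46111003) they mark the motif of ETS factors such as GABP, CCGGAAG, and in Mrpl52 (chr14:54426789-54426908) its reverse complement.
Mrpl12: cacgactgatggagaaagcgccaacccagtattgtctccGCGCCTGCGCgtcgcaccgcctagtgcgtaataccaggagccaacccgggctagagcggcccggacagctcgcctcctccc
Mrpl22: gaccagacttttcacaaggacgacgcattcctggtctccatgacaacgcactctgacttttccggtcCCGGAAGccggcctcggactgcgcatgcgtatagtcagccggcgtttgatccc
Mrpl52: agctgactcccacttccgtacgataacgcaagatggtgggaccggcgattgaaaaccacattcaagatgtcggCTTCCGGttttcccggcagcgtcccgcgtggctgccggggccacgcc
Mrps18a: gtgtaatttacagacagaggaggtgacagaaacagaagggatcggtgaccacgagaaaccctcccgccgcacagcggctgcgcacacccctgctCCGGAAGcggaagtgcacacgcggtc
Mrpl34: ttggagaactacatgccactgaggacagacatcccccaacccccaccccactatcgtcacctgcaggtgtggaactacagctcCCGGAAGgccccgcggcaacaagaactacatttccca

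RefSeq promoters, which run from 250 bases before to 50 after a start site, were matched by symbol for 67 of the 76 members, and motifs were searched on both strands. The ETS letters CCGGAAG stood in 24 of the 67 (35.8%), in 21.2% of 7755 other tested genes and in 9.93% of all 27025 genes in the promoter table. The NRF1 motif stood in 12 members (17.9%), against 12.2% of other tested genes and 5.19% of all. The YY1 letters AAGATGGC also stood in 12 members, against 5.54% of other tested genes and 3.19% of all. At least 1 of these motifs was present in 41 members (61.2%), against 34.2% of other tested genes, whereas the letters CCAAT were about as frequent in members (40.3%) as in other tested genes (43.8%). Of the members called higher in KOb than in FFa, 11 of 20 with a promoter in the table held at least 1 of the 3 motifs, as did 28 of 45 not called and both that were lower. A match describes letters only.

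In every group the members spanned more than 2 orders of magnitude in level, and Mrpl52 stood above all others. Mrpl52 (chromosome 14, 54426909 to 54429756 of GRCm38) encodes a mitochondria-specific protein of the central protuberance of the large subunit. It had an FPKM of 348 in KOb, 303 in KOa and 197 in FFa. Alone it made up 21.3%, 22.3% and 14.8% of the members' summed FPKM in KOb, KOa and FFa. Next in mean level came Mrpl33, with an FPKM of 95.3 in KOb, 76.6 in KOa and 77.0 in FFa, and Mrpl30, with 83.5 in KOb, 74.0 in KOa and 67.9 in FFa. At the other end, Mrpl17 had 1.22 in KOb, 1.04 in KOa and 0.830 in FFa, and Mrps27 had 1.58 in KOb, 0.814 in KOa and 0.855 in FFa. No member was under 1 FPKM in KOb, 2 were in KOa and 3 in FFa, and 45 reached 5 FPKM in every group. Across the 76 genes, higher levels went with shorter transcripts (Spearman rho -0.50 between mean FPKM and the longest protein-coding transcript). Members were short, with a median of 1302 bases against 2998 for 9407 other tested protein-coding genes.

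Summed over all 76 genes, the FPKM was 1637 in KOb, 1360 in KOa and 1328 in FFa. Without Mrpl52 the sums were 1289 in KOb, 1057 in KOa and 1131 in FFa. The median member stood at 9.53 in KOb, 6.54 in KOa and 6.97 in FFa. Both subunits were highest in KOb, with a summed FPKM of 1224 in KOb, 1025 in KOa and 957 in FFa for the large subunit, and 412 in KOb, 335 in KOa and 371 in FFa for the small one. Of the single genes, 57 had their highest FPKM in KOb, 6 in KOa and 13 in FFa. The same count was not made over all tested genes, so it cannot be read as particular to the members.

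**Figure D1:**
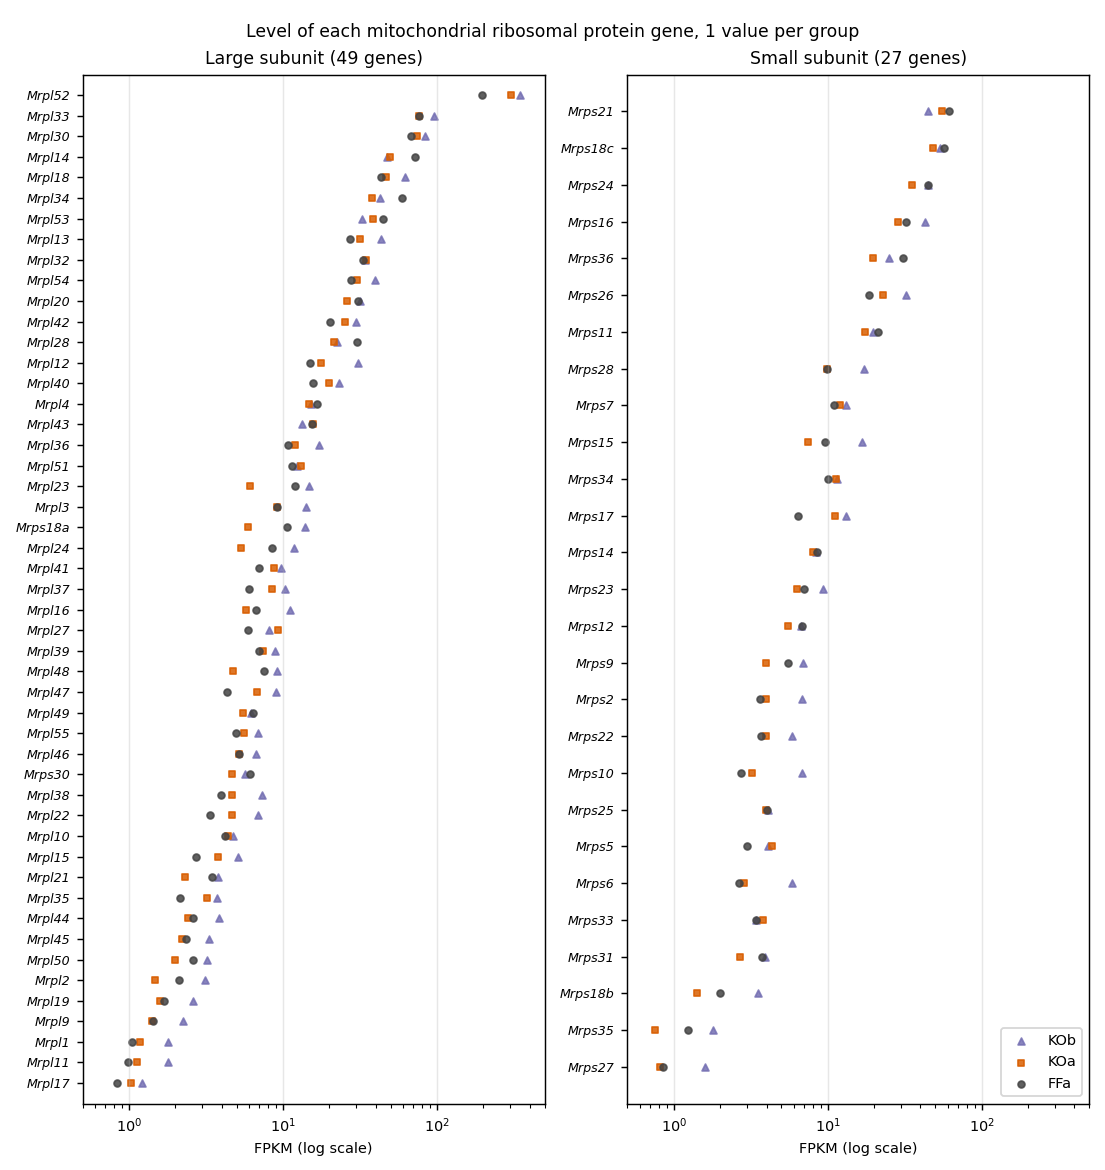
FPKM of each of the 76 genes on a log axis, with 1 pooled value per group (triangles KOb, squares KOa, circles FFa), the 49 genes of the large subunit on the left and the 27 of the small subunit on the right, ordered by mean level. The KOb value is the highest of the 3 in 57 genes, a count not made over all tested genes. Mrpl52 lies far above the other genes.

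KOb against FFa compares the more completely deleted, TER119-negative mutant cells with TER119-positive control cells. In KOb, 25 of the 76 members were higher than in FFa by the authors' deposited q (32.9%, where 12.8% of all tested genes were called higher), and 2 were lower (2.63%, where 15.2% of all tested genes were called lower). The median log2 ratio of the members was 0.45 and that of all tested genes -0.01. A ratio above 0 was seen in 62 of 76 members (81.6%), against 49.1% of all tested genes. Under a standard normal reading of the deposited statistic, 5 members were higher and 1 lower, where 4.20% of all tested genes were higher and 6.63% lower. With FPKM rescaled to a common total without globin genes and the same reading, 41 were higher and 0 lower, where 20.3% of all tested genes were higher and 3.35% lower, and the members' median was 0.96. Deletion, sort gate and possibly poly(I:C) differ together between these groups and cannot be told apart.

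**Figure D2:**
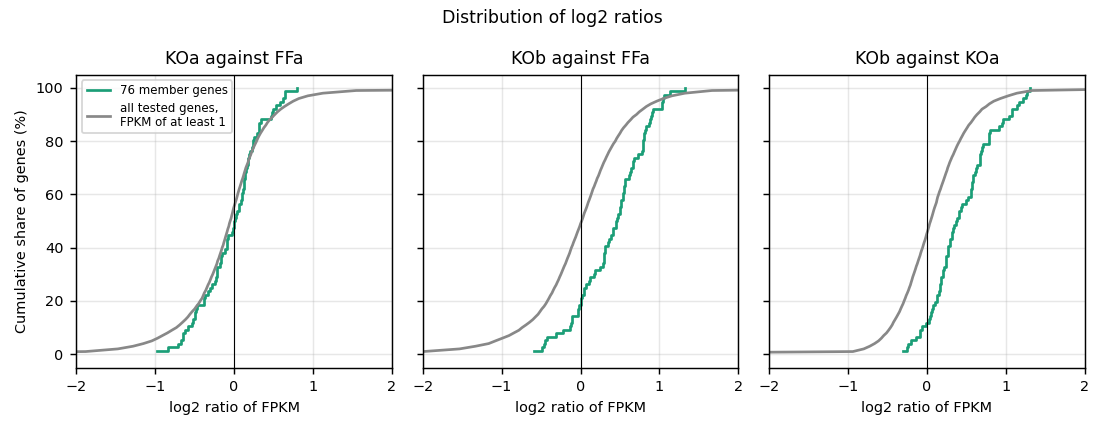
Cumulative share of genes by log2 ratio of FPKM in the 3 comparisons, for the 76 members (green steps) and for all tested genes that reached 1 FPKM in both groups (grey line). In KOa against FFa the curves run close together, with medians of 0.00 for the members and -0.05 for all such genes. In KOb against FFa the members lie to the right, with a median of 0.45 against 0.01, and in KOb against KOa also, with 0.37 against 0.05.

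The largest rise belonged to Mrps10, a small-subunit protein of a family shared with bacteria (chromosome 17, 47368887 to 47381417). Its FPKM was 6.79 in KOb, 3.23 in KOa and 2.72 in FFa, and the authors' deposited log2 ratio of KOb to FFa was 1.32 ± 0.49 (q 0.000619). That q is the smallest in the table, and Mrpl12, Mrpl15, Mrpl52, Mrps2, Mrps17 and Mrps26 shared it in this comparison. Under a standard normal reading of the deposited statistic, Mrps10 was not called (q 0.064). Its KOb level stood well above those of KOa and FFa, which were close to each other. The same order, KOb high and KOa near FFa, was seen for Mrpl12, the stalk protein homologous to bacterial L7/L12 that helps recruit elongation factors. Mrpl12 (chromosome 11, 120484613 to 120489065) had an FPKM of 30.8 in KOb, 17.7 in KOa and 15.0 in FFa, with a deposited log2 ratio of 1.04 ± 0.27 in the authors' table for KOb against FFa.

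Among the other small-subunit genes that rose in KOb against FFa, Mrps2 had an FPKM of 6.84 in KOb, 3.96 in KOa and 3.62 in FFa. Mrps28 had 17.2 in KOb, 9.96 in KOa and 9.89 in FFa, and Mrps15 had 16.6 in KOb, 7.39 in KOa and 9.52 in FFa. Mrps2, Mrps15 and Mrps28 all belong to families with bacterial relatives, and their log2 ratios in the authors' deposited table were 0.92 ± 0.37, 0.80 ± 0.30 and 0.80 ± 0.29 for Mrps2, Mrps15 and Mrps28. Mrps26, a mitochondria-specific protein, had an FPKM of 32.1 in KOb, 22.8 in KOa and 18.6 in FFa, and rose by 0.79 ± 0.26 on the log2 scale (q 0.000619 in the authors' deposited table). Mrps22, also mitochondria-specific, rose as the called member nearest the threshold, with 5.84 in KOb and 3.68 in FFa (log2 ratio 0.66 ± 0.37, q 0.0489 in the authors' deposited table). Mrps6 had an FPKM of 5.82 in KOb and 2.64 in FFa, but part of its exons overlaps Slc5a3 and Gm49711 on the same strand, and its deposited log2 ratio in the authors' table had the widest error of the 25, 1.14 ± 0.61.

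In the large subunit, 17 of 49 members rose in KOb against FFa, with a median log2 ratio over all 49 of 0.49, and 8 of 27 small-subunit members rose, with a median of 0.41. Of all tested genes, 12.8% were called higher in this comparison. Mrpl22 and Mrpl47 encode neighbours of the exit of the peptide tunnel. Mrpl22 had an FPKM of 6.90 in KOb, 4.67 in KOa and 3.33 in FFa. Mrpl47 had 8.99 in KOb, 6.79 in KOa and 4.33 in FFa. Both had a log2 ratio of 1.05 in the authors' deposited table for KOb against FFa, with errors of ± 0.41 for Mrpl22 and ± 0.36 for Mrpl47, and their KOa values lay between those of KOb and FFa.

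Further large-subunit genes rose less steeply. Mrpl15 had an FPKM of 5.07 in KOb, 3.77 in KOa and 2.71 in FFa, and Mrpl38, a mitochondria-specific protein of the central protuberance, had 7.27 in KOb, 4.70 in KOa and 3.94 in FFa. Mrpl11, of the stalk base, was low throughout, with 1.79 in KOb, 1.12 in KOa and 0.980 in FFa. The deposited log2 ratios of the authors' table were 0.90 ± 0.35 for Mrpl15, 0.88 ± 0.35 for Mrpl38 and 0.87 ± 0.46 for Mrpl11. Mrpl3, Mrpl13, Mrpl16, Mrpl18, Mrpl19, Mrpl36, Mrpl37, Mrpl40 and Mrpl42 also passed the threshold for KOb against FFa, by 0.52 (Mrpl18) to 0.78 (Mrpl37) on the log2 scale in the authors' deposited table.

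Mrpl52, Mrps17 and Mrpl35 were higher in both mutant groups than in FFa. For Mrpl52 the log2 ratio in the authors' deposited table was 0.82 ± 0.16 in KOb and 0.62 ± 0.16 in KOa, each against FFa. Mrps17, a small-subunit protein that binds ribosomal RNA, had an FPKM of 13.1 in KOb, 11.1 in KOa and 6.39 in FFa, with deposited log2 ratios of 1.04 ± 0.31 in KOb and 0.80 ± 0.32 in KOa in the authors' table. Mrpl35 had 3.72 in KOb, 3.20 in KOa and 2.15 in FFa, with log2 ratios of 0.79 ± 0.34 in KOb and 0.58 ± 0.35 in KOa in the authors' deposited table. In all of them the mutant values lay close together and above FFa, and KOb against KOa was not called, with log2 ratios of 0.20 ± 0.17, 0.24 ± 0.30 and 0.22 ± 0.33 for Mrpl52, Mrps17 and Mrpl35.

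Mrpl14 and Mrpl34, both of bacterial families and both among the 8 most abundant members, were lower in both mutant groups. Mrpl14 (chromosome 17, 45686322 to 45698495), which lies at the interface of the subunits, had an FPKM of 47.5 in KOb, 49.6 in KOa and 71.5 in FFa. Its log2 ratio to FFa in the authors' deposited table was -0.59 ± 0.21 in KOb and -0.53 ± 0.22 in KOa. Mrpl34 (chromosome 8, 71464959 to 71465747) had 42.4 in KOb, 38.0 in KOa and 59.4 in FFa, with deposited log2 ratios of -0.49 ± 0.22 in KOb and -0.65 ± 0.23 in KOa in the authors' table. Under a standard normal reading of the deposited statistic, the fall of Mrpl14 in KOb was called (q 0.0497) and the other falls were not. With that reading and FPKM rescaled to a common total without globin genes, none of these falls was called. The rescaled log2 ratios to FFa were -0.08 in KOb and 0.01 in KOa for Mrpl14. For Mrpl34 they were 0.02 in KOb and -0.11 in KOa. That rescaling raised all log2 ratios by 0.54 in KOa against FFa and by 0.51 in KOb against FFa, because the summed FPKM of non-globin genes was 308022 in KOb, 302378 in KOa and 438557 in FFa. These totals include RNA of other cell types, such as the 10 granulocyte markers, which summed to 13462 in KOb, 16603 in KOa and 49125 in FFa. The part of such RNA in the rescaling was not tested.

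In KOa against FFa both groups were TER119-positive, so genotype differs and the gate does not. Poly(I:C) may differ as well, since the labels do not say whether FFa mice received it. Summed B cell markers (15.1 in KOa and 236 in FFa) and granulocyte markers (16603 in KOa and 49125 in FFa) also differed, and their part was not tested. Here 3 of 76 members were higher (3.95%, where 7.99% of all tested genes were called higher) and 6 were lower (7.89%, where 14.1% were called lower) by the authors' deposited q. The median log2 ratio was 0.00 for the members and -0.08 for all tested genes, and 38 of 76 members lay above 0 (50%), against 43.3% of all tested genes. Under a standard normal reading of the deposited statistic, 1 member was higher and 0 lower, where 2.60% of all tested genes were higher and 5.16% lower. With the total without globin genes and that reading, 16 were higher and 0 lower, where 13.3% of all tested genes were higher and 2.13% lower, and the members' median was 0.54. The balance of higher and lower calls thus depended on the reading of the statistic and on the scaling. By the deposited q, the 3 that rose were Mrpl52, Mrps17 and Mrpl35, described above. Besides Mrpl14 and Mrpl34, the genes that fell were Mrpl23, Mrps18a, Mrpl28 and Mrps36.

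Mrpl23 (chromosome 7, 142532686 to 142540747), which encodes a protein at the exit of the peptide tunnel, showed the deepest fall. Its FPKM was 14.7 in KOb, 6.09 in KOa and 11.9 in FFa, and the deposited log2 ratio of KOa to FFa in the authors' table was -0.97 ± 0.34. Mrps18a (chromosome 17, 46110986 to 46128910) had the same order of groups, with 13.9 in KOb, 5.97 in KOa and 10.6 in FFa and a log2 ratio of -0.83 ± 0.33 for KOa against FFa in the authors' deposited table. In both genes KOa was the lowest group and KOb the highest. Mrpl28 had an FPKM of 22.5 in KOb, 21.4 in KOa and 30.2 in FFa, and fell by 0.50 ± 0.26 in KOa on the log2 scale in the authors' deposited table. Mrps36 was counted here in the small subunit, but its product is described as part of the 2-oxoglutarate dehydrogenase complex. Mrps36 had 24.8 in KOb, 19.6 in KOa and 30.6 in FFa, with a log2 ratio of -0.64 ± 0.33 in the authors' deposited table. Under a standard normal reading of the deposited statistic none of these falls was called, with or without scaling to the total without globin genes. With that scaling the log2 ratios of KOa to FFa were -0.43 for Mrpl23, -0.30 for Mrps18a, -0.11 for Mrps36 and 0.04 for Mrpl28. Pseudogenes named after Mrpl23 (1) and Mrps36 (3) are annotated, so how reads were split between copies could bear on these values.

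KOb against KOa compares the mutant groups with each other, and thus the degree of deletion and the TER119 gate at once. In KOb, 19 of 76 members were higher than in KOa by the authors' deposited q (25%, where 10.0% of all tested genes were called higher). None was lower, where 6.19% of all tested genes were called lower. By Cuffdiff's unadjusted p below 0.05, 32 members were higher and 0 lower, where 16.6% of all tested genes were higher and 11.4% lower. Under a standard normal reading of the deposited statistic 3 were higher and 0 lower, where 1.17% of all tested genes were higher and 0.506% lower. The median log2 ratio was 0.37 for the members and 0.05 for all tested genes, and 67 members (88.2%) lay above 0 against 53.9% of all tested genes. This comparison shares the KOb libraries with KOb against FFa and the KOa libraries with KOa against FFa, so the comparisons are not independent.

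The widest gap was that of Mrps18b, a small-subunit protein of low level, with an FPKM of 3.50 in KOb, 1.41 in KOa and 1.99 in FFa. Its log2 ratio of KOb to KOa in the authors' deposited table was 1.31 ± 0.54, with part of its exons overlapped by Gm16279 on the opposite strand. Under a standard normal reading of the deposited statistic, Mrps18b was not called (q 0.275). Mrpl23 and Mrps18a followed, with deposited log2 ratios of 1.27 ± 0.34 and 1.22 ± 0.33 for Mrpl23 and Mrps18a in the authors' table. Mrps15, with 16.6 in KOb and 7.39 in KOa, had 1.17 ± 0.31. Mrpl24, another protein near the tunnel exit, had an FPKM of 11.8 in KOb, 5.34 in KOa and 8.54 in FFa, and a deposited log2 ratio of KOb to KOa of 1.14 ± 0.58 in the authors' table, with part of its exons overlapped by Rrnad1 on the opposite strand. Mrpl2, near the catalytic centre of the large subunit, had 3.10 in KOb and 1.47 in KOa, with 1.08 ± 0.55 for KOb against KOa in the authors' deposited table. For Mrps18b, Mrpl23, Mrps18a, Mrps15, Mrpl24 and Mrpl2 alike, FFa lay between KOa and KOb.

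Of the 19, Mrpl3, Mrpl12, Mrpl16, Mrpl19, Mrpl38, Mrps2, Mrps10, Mrps15, Mrps26 and Mrps28 (10 genes) were also called higher in KOb against FFa. The share of all tested genes called higher in both comparisons was not computed. Mrpl16 had an FPKM of 11.1 in KOb, 5.78 in KOa and 6.72 in FFa, with log2 ratios of 0.95 ± 0.33 to KOa and 0.73 ± 0.32 to FFa in the authors' deposited table. Mrpl3 had 14.1 in KOb, 9.21 in KOa and 9.08 in FFa. Mrpl50, Mrps9, Mrps16 and Mrps23 were called against KOa and not against FFa, with log2 ratios to KOa of 0.58 (Mrps23) to 0.78 (Mrps9) in the authors' deposited table. By subunit, 10 of 49 large-subunit and 9 of 27 small-subunit members were higher in KOb than in KOa, and the medians were 0.37 and 0.49. By origin, 15 of 48 members of bacterial families and 4 of 28 mitochondria-specific members were higher, with medians of 0.42 and 0.31. Of all tested genes, 10.0% were called higher in KOb against KOa, a share that the 4 of 28 came near. Whether these groups of members differ from each other was not tested.

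**Figure D3:**
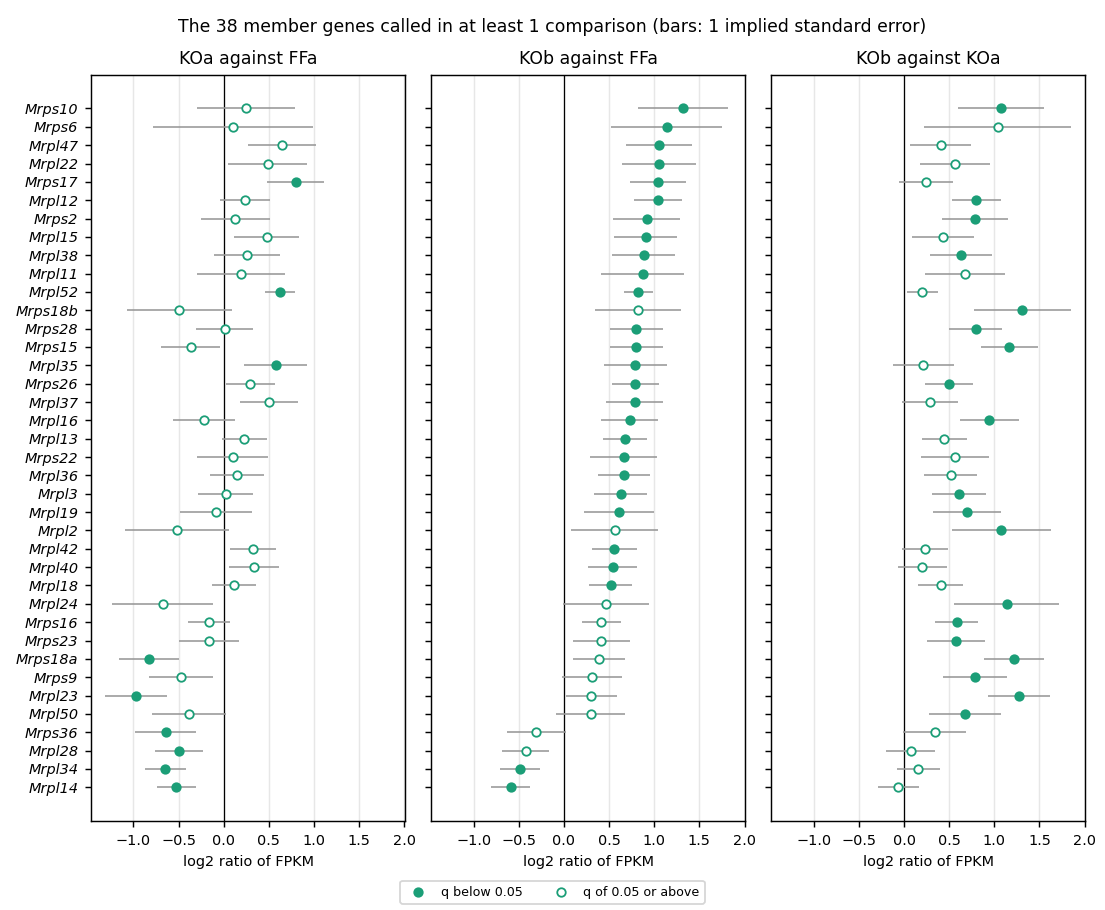
Log2 ratio of FPKM (points) with 1 implied standard error (bars) for the 38 members called in at least 1 comparison, in the order of their KOb to FFa ratio, with filled points for a q below 0.05 in the authors' deposited table. The 25 filled points right of 0 in the middle panel and the 19 in the right panel contrast with 3 right of 0 and 6 left of 0 in the left panel.

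In KOb against FFa, Mrpl34 (q 0.0441) and Mrps22 (q 0.0489) lay just inside the threshold, and Mrpl54 (log2 ratio 0.51 ± 0.23, q 0.053) and Mrpl41 (0.47 ± 0.34, q 0.0604) just outside in the authors' deposited table. In KOb against KOa, Mrps26 (q 0.0407) and Mrpl2 (q 0.0413) lay just inside, and Mrpl36 (0.52 ± 0.29, q 0.0578) and Mrpl45 (0.58 ± 0.38, q 0.0583) just outside. In KOa against FFa, Mrpl35 (q 0.0321) and Mrpl28 (q 0.034) lay just inside, and Mrpl27 (0.65 ± 0.34, q 0.0679) and Mrpl37 (0.50 ± 0.32, q 0.074) just outside. Mrpl45, which anchors the ribosome to the inner membrane, had an FPKM of 3.32 in KOb, 2.22 in KOa and 2.35 in FFa. Not called in any comparison were 38 members, and the same share over all tested genes was not computed. Among the 38 were Mrpl32 (34.3 in KOb, 34.5 in KOa and 33.1 in FFa) and Mrps12 of the decoding centre (6.66, 5.55 and 6.83 in the same order). Mrpl10 of the stalk base (4.74, 4.40 and 4.20) was another.

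The deposited p-values were mostly smaller than a normal reading of the deposited statistic would give. Under that reading, 5 members were higher in KOb against FFa (Mrpl12, Mrpl47, Mrpl52, Mrps17 and Mrps26), where 4.20% of all tested genes were called higher. In KOb against KOa they were Mrpl23, Mrps15 and Mrps18a, where 1.17% of all tested genes were called higher. In KOa against FFa the member called higher was Mrpl52, where 2.60% of all tested genes were called higher, and none was lower, where 5.16% were.

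Members of lower level had larger ratios. In KOb against FFa, the 25 members with a mean FPKM under 5 had a median log2 ratio of 0.61, the 31 between 5 and 20 had 0.39, and the 20 above 20 had 0.17, where all tested genes of these levels had medians of 0.06, 0.04 and -0.15. In KOb against KOa the members' medians were 0.67, 0.29 and 0.26, and those of all tested genes 0.15, 0.03 and -0.16. The share called higher in KOb against FFa was 36%, 32.3% and 30% in the 3 classes, against 14.9%, 16.0% and 11.8% of all tested genes. As a description over the 76 genes, Spearman's rho between mean FPKM and ratio was -0.38 for KOb against FFa, -0.42 for KOb against KOa and -0.03 for KOa against FFa.

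**Figure D4:**
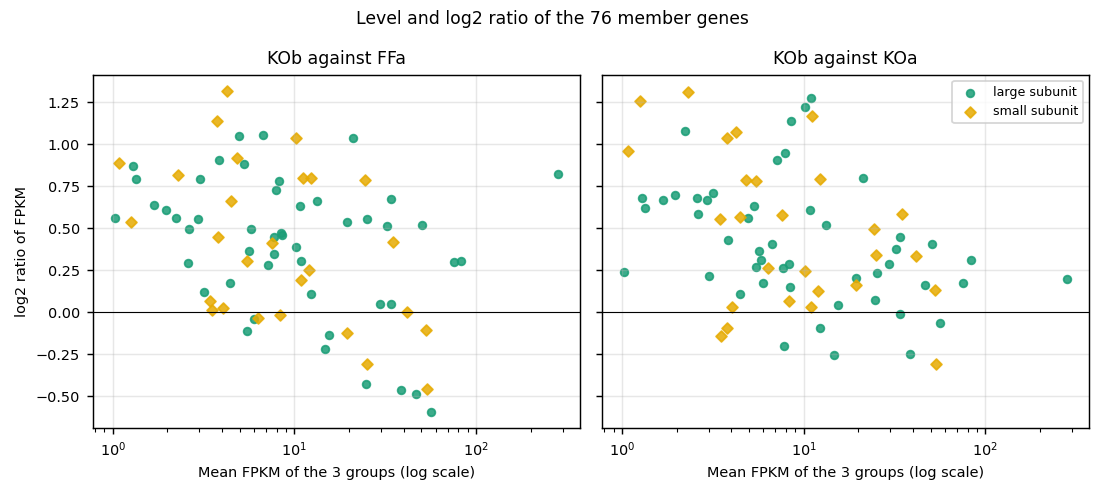
Log2 ratio of FPKM against the mean FPKM of the 3 groups (log axis) for the 76 genes, circles for the large and diamonds for the small subunit. Ratios fall with level in both panels (Spearman's rho -0.38 for KOb against FFa on the left and -0.42 for KOb against KOa on the right), and Mrpl52, the point farthest to the right, has a KOb to FFa ratio of 0.82.

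In the genome the 76 genes lay on 17 chromosomes of GRCm38, with at most 10 on 1 chromosome (chromosome 11). The start site of a protein-coding gene on the opposite strand lay within 1000 bases for 32 members (42.1%), against 1635 of 9408 other tested protein-coding genes (17.4%). Mrpl46 and Mrps11, with start sites 412 bases apart on chromosome 7, were the only members paired with each other in this way. Mrpl46 had an FPKM of 6.64 in KOb, 5.15 in KOa and 5.17 in FFa, and Mrps11 had 19.5, 17.5 and 21.2 in the same order. Exons of 32 members overlapped another gene, 27 of them on the opposite strand, and the sources used here do not say whether strand was used in counting. Without these 32, 16 of 44 members were higher in KOb than in FFa, where 12.8% of all tested genes were called higher.

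Other genes of mitochondrial translation were set beside the members. Their counts can be read against the shares of all tested genes called, which were 12.8% higher and 15.2% lower in KOb against FFa, 10.0% higher and 6.19% lower in KOb against KOa, and 7.99% higher and 14.1% lower in KOa against FFa. Several of the counts, such as 2 of 24 or 1 of 13, are near or below these shares. Of mitoribosome assembly genes, 7 of 26 were higher and 1 lower in KOb against FFa, 5 of 26 higher and 0 lower in KOb against KOa, and 2 of 24 higher and 2 lower in KOa against FFa. Fastkd2, which binds the large mitochondrial ribosomal RNA, had an FPKM of 1.48 in KOb, 0.537 in KOa and 0.659 in FFa. Noa1, a mitochondrial GTPase needed for small-subunit assembly, had 4.53 in KOb, 2.36 in KOa and 2.50 in FFa, and both were called higher in KOb in both comparisons. Eral1, the GTPase that chaperones small-subunit ribosomal RNA, had 3.82 in KOb, 3.36 in KOa and 2.03 in FFa, and was higher in both mutant groups than in FFa. The assembly gene that was lower in KOb than in FFa was Mrm1, a methyltransferase of large-subunit ribosomal RNA, with 10.7 in KOb, 13.3 in KOa and 20.1 in FFa and a log2 ratio to FFa of -0.91 ± 0.28 in KOb in the authors' deposited table.

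Of mitochondrial translation factors, 1 of 13 was higher in KOb than in FFa and 6 of 13 were higher in KOb than in KOa, with none lower in either, and 1 of 12 was lower in KOa than in FFa. Tsfm, the elongation factor Ts, had an FPKM of 5.76 in KOb, 3.35 in KOa and 3.35 in FFa. Tufm, the elongation factor Tu, had 3.50 in KOb and 2.04 in KOa, a log2 ratio of 0.77 ± 0.47 in the authors' deposited table. Of mitochondrial tRNA synthetases, 4 of 16 were higher and 1 lower in KOb than in FFa, 5 higher and 0 lower in KOb than in KOa, and 0 higher and 3 lower in KOa than in FFa. Yars2, the tyrosine enzyme, had 4.10 in KOb, 2.30 in KOa and 2.02 in FFa, and Lars2, the leucine enzyme, had 29.8 in KOb, 22.5 in KOa and 57.9 in FFa, which was lower in both mutant groups. Among 7 mitoribosomal proteins with other symbols, Ptcd3 was the one called, with 3.86 in KOb, 2.18 in KOa and 2.23 in FFa.

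Of 8 tested genes for mitochondrial transcription and genome upkeep, 1 was higher and 1 lower in KOb than in FFa, 2 higher in KOb than in KOa, and none was called in KOa against FFa. Tfam, which packages mitochondrial DNA and starts its transcription, had an FPKM of 4.84 in KOb, 3.24 in KOa and 3.37 in FFa, and was higher in KOb in both comparisons. Of 8 tested regulators of mitochondrial biogenesis, Nrf1, the factor that binds the motif shown for Mrpl12, had 8.78 in KOb, 10.5 in KOa and 17.8 in FFa. Its log2 ratio to FFa in the authors' deposited table was -1.02 ± 0.31 in KOb and -0.75 ± 0.31 in KOa. Myc, a growth regulator, had 13.5 in KOb, 6.20 in KOa and 12.8 in FFa, and was lower in KOa than in FFa and higher in KOb than in KOa. No other gene of these 8 was called.

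The nuclear partners of the mitoribosome's products gave other counts in both comparisons of KOb. The cytosolic ribosome gave other counts against FFa, but between KOb and KOa 30.9% of its tested genes were higher, against 25% of the members. Of 76 tested oxidative phosphorylation subunits, 5 were higher and 7 lower in KOb than in FFa, with a median log2 ratio of -0.01, against 25 higher and 2 lower of the 76 mitoribosomal members. Between KOb and KOa, 9 of 75 such subunits were higher and 2 lower. Of 81 cytosolic ribosomal protein genes, 8 were higher and 4 lower in KOb than in FFa (median 0.09), 25 higher and 2 lower in KOb than in KOa (median 0.26), and 6 higher and 18 lower in KOa than in FFa (median -0.23). Cytosolic ribosomal protein genes have many processed pseudogenes, which makes their values less certain. Differences between these lists were not tested.

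**Figure D5:**
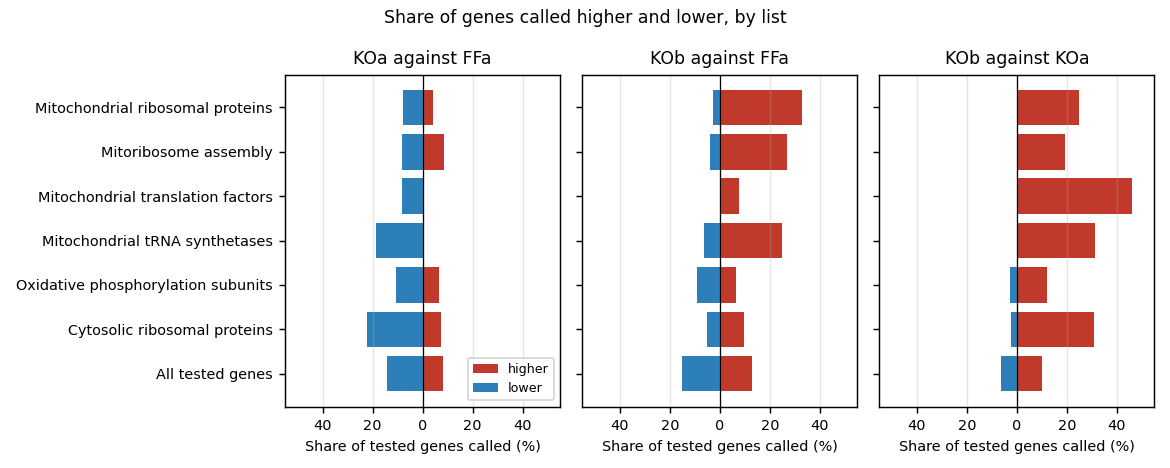
Share of tested genes called higher (red, right of 0) and lower (blue, left of 0) at a q below 0.05 in the authors' deposited table, for the mitochondrial ribosomal protein genes, 5 other lists and all tested genes. In KOb against FFa the members reach 32.9% higher, against 12.8% of all tested genes. In KOb against KOa they reach 25% higher with none lower, against 10.0% and 6.19% of all tested genes. There, mitochondrial translation factors (46.2%), mitochondrial tRNA synthetases (31.25%) and cytosolic ribosomal proteins (30.9%) reach larger shares higher. Mitoribosome assembly genes (19.2%) and oxidative phosphorylation subunits (12%) reach smaller ones.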

How the data were processed

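RNA from 9 libraries, 3 per group, was purified with RNeasy and in-column DNase, and total RNA went into NuGEN Encore Complete libraries, per the labels' protocols. Per the submitters' processing notes, the tools were Bowtie2 2.1.0, TopHat2 2.0.8b and Cuffdiff 2.1.1, and the build was mm10. Strand use, filters and gene annotation: not given in the sources used here. FPKM values were deposited by the authors, 1 per gene and group, so libraries were already pooled and their depth is unknown. The deposited log2 ratio compares the group FPKM without a pseudocount. The authors' test statistic, treated here as a score, and their p-value and q-value accompany it. Recomputing gave the deposited q as a Benjamini-Hochberg adjustment over the 31813 tested results of the 3 comparisons. Of these, 96.0% have a deposited p below that of the statistic read as a standard normal.

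Folds, medians, counts and implied standard errors (the log2 ratio over the statistic) were computed here with Python 3.11.15, pandas 2.3.3, numpy 2.4.6 and scipy 1.17.1. The code for the Benjamini-Hochberg adjustment and the standard normal reading was run on simulated statistics. Those were drawn as normal, so the run cannot show whether the deposited statistic follows a standard normal. The sign was set so that the mutant, or KOb between mutants, is on top. Group values allowed no other test than the authors'. Gene positions, overlaps and transcript lengths are from GENCODE M21 on GRCm38, and promoters from RefSeq on GRCm38.p6.

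The members and lists were chosen with earlier results of these data known, and the lists of cytosolic ribosomal proteins and oxidative phosphorylation subunits were defined by symbol rules after the table had been seen. Statistics are given for up to 12 called members per comparison and direction by size of ratio, for the members nearest the threshold and for the most abundant ones. From other lists, up to 4 called genes per comparison that reach 1 FPKM in the higher group are named, and Mrm1 was added after its values were seen. Alternatives covered the q adjustment, the threshold, filters on FPKM, pseudocounts, scaling, the reading of the statistic and membership.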

Additional observations from a re-analysis of the deposited data

Results flagged for a closer look

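The following members differed between the mutant groups, each set against the same control, by the authors' direct test of KOb against KOa. The KOb to KOa log2 ratio in the authors' deposited table was 1.31 for Mrps18b, 1.27 for Mrpl23, 1.22 for Mrps18a and 1.17 for Mrps15. It was 1.14 for Mrpl24, 1.08 for Mrpl2, 1.07 for Mrps10 and 0.95 for Mrpl16. It was 0.80 for Mrpl12, 0.79 for Mrps28, 0.79 for Mrps2 and 0.78 for Mrps9. The remaining values were 0.70 for Mrpl19, 0.68 for Mrpl50, 0.63 for Mrpl38, 0.61 for Mrpl3, 0.58 for Mrps16, 0.58 for Mrps23 and 0.49 for Mrps26. Of these 19 genes, Mrpl23 and Mrps18a were called lower in KOa against FFa, and 10 were called higher in KOb against FFa. The TER119 gate differs between KOb and KOa together with the degree of deletion, so their parts cannot be told apart.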

How the results depend on the processing

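No paired analysis was possible because the table holds no value per library, and for the same reason no replicate could be left out. With a standard normal reading of the statistic, 5 members were higher and 1 lower in KOb against FFa (25 and 2 by the deposited q), 3 were higher in KOb against KOa (19 by the deposited q), and 1 was higher and 0 lower in KOa against FFa (3 and 6). Centring on the median gene gave the same numbers under that reading. Under that same reading, FPKM was also scaled to the total without globin genes. Then 41 were higher and 0 lower in KOb against FFa (against 20.3% and 3.35% of all tested genes). In KOa against FFa 16 were higher and 0 lower (against 13.3% and 2.13%), and in KOb against KOa 3 were higher (against 1.01%). With the scaling, the median log2 ratio was 0.96 in KOb against FFa and 0.54 in KOa against FFa. The scaled ratio was 0.00852 for Mrpl14 and 0.0388 for Mrpl28 in KOa, and 0.0245 for Mrpl34 in KOb. At a q below 0.01, 15 were higher and 0 lower in KOb against FFa (against 7.79% and 10.4% of all tested genes), 10 higher in KOb against KOa (against 5.32%), and 2 lower in KOa against FFa (against 9.06%). Without members whose exons overlap other genes, an alternative chosen after seeing the data, 16 of 44 were higher and 1 lower in KOb against FFa (against 12.8% and 15.2% of all tested genes). With members of at least 5 FPKM in the higher group, the median in KOa against FFa was -0.00532 in place of 0.00279. The other alternatives kept these counts within 1.5 times and each median's direction. The depth is unknown, so no limit from counts can be given.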
